A study of Mus musculus with 8 samples.

Results

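Hand1, Hand2, Msx1, Msx2, Edn1, Ednra, Ece1 and Gsc are 8 genes known for patterning the distal, or lower jaw, side of the pharyngeal arches. They were taken by gene name from a table of raw counts that lists 23420 genes, and all 8 were among the 14861 genes with enough counts to test. RNA was measured in 8 libraries from mouse embryos at 10.5 days post coitum, 4 labelled Pygo2 mutant and 4 labelled Pygo2 wild-type, littermates of the mutants. Each library came from a single embryo and held its pharyngeal (branchial) arches together with its looping heart. The labels name neither the Pygo2 allele nor any Cre driver, and no strain is given. Pygo2 encodes a PHD-finger protein that takes part in transcription by β-catenin together with Bcl9 proteins, and the comparison asks which genes of arches and heart differ when it is mutated.

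In the arches, endothelin-1, the product of Edn1, is secreted as a precursor that the protease encoded by Ece1 cuts to its active form. It acts on neural crest cells through the G protein-coupled receptor encoded by Ednra, and in mouse embryos this signal is needed for the expression of Hand2 and Gsc and for lower jaw identity. Msx1 and Msx2 are homeobox genes that respond to BMP signals in the distal arch mesenchyme. Hand1 and Hand2 encode basic helix-loop-helix factors of the most distal arch, and both are also expressed in the developing heart, as Ece1 and Edn1 are in endothelium and endocardium. A level in these bulk libraries is therefore a sum over arch and heart, and fewer cells of a type cannot be told apart from less RNA per cell.

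The mutant libraries held 23275550 to 27805048 counts and the wild-type libraries 20823890 to 28175968. Pygo2 had 17.3 to 22.0 CPM (counts scaled to a common library size) in mutants, against 44.6 to 56.2 CPM in wild-type embryos (log2 fold change -1.40, SE 0.12, edgeR quasi-likelihood adjusted p = 0.0081), and the groups did not overlap. It was the only gene of the 14861 tested whose adjusted p was under 0.05. That call was lost when mutant 2, 3 or 4 or wild-type 1 or 2 was left out (edgeR adjusted p = 0.0549 to 0.0973), at log2 fold changes of -1.40 to -1.35. With all libraries Pygo2 was also called by DESeq2 (adjusted p = 2.67e-23), the edgeR exact test (2.42e-16) and limma-voom (0.0107). Both tissues were present in every library. The summed level of 12 heart muscle genes ran from 12000 to 25800 CPM in mutants and from 8420 to 19200 CPM in wild-type embryos, and that of 12 arch mesenchyme genes from 683 to 845 CPM in mutants and from 782 to 1020 CPM in wild-type embryos. Neural genes varied widely within groups, with 35.1 to 674 CPM summed over 10 genes in mutants and 64.8 to 588 CPM in wild-type embryos.

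None of the 8 genes passed the threshold, although 6 of them were lower in mutants. An adjusted p under 0.05 by the quasi-likelihood test of edgeR counted as a call, which 0 of the 8 reached, against 0.00673% of all genes tested in either direction. The same count of 0 came from DESeq2, from limma-voom and from edgeR's exact test. The 8 were chosen with earlier results of these data known, so the counts that follow are descriptions. At an unadjusted p under 0.05, 2 of the 8 were lower in mutants (Hand1 and Msx1) and 0 higher, against 0.814% of all genes lower and 0.484% higher. DESeq2, the exact test and limma-voom each gave 3, adding Hand2, against 0.962%, 0.673% and 0.855% of all genes lower. The count was 1 (Msx1) without mutant 2 (1.3% of all genes lower), mutant 4 (0.434%), wild-type 2 (0.501%) or wild-type 4 (0.591%). It was 3 without mutant 1 (1.31%), and 4 without wild-type 3 (1.01%) or without both libraries of number 1 (0.976%). It was 0 without both libraries of number 2 (0.769%) or of number 4 (0.35%). With the embryos of the same number treated as pairs the count was 4 lower, Hand1, Hand2, Msx1 and Gsc, against 2.52% of all genes, and again 0 were called. The median log2 fold change of the 8 was -0.55, while that of all genes tested was 0.00 and 50.0% of them were lower in mutants. In 0 of the 8 did all mutant libraries lie below all wild-type libraries, as 0.559% of all genes did, and in 0 did they lie above (0.484% of all genes).

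**Figure D1:**
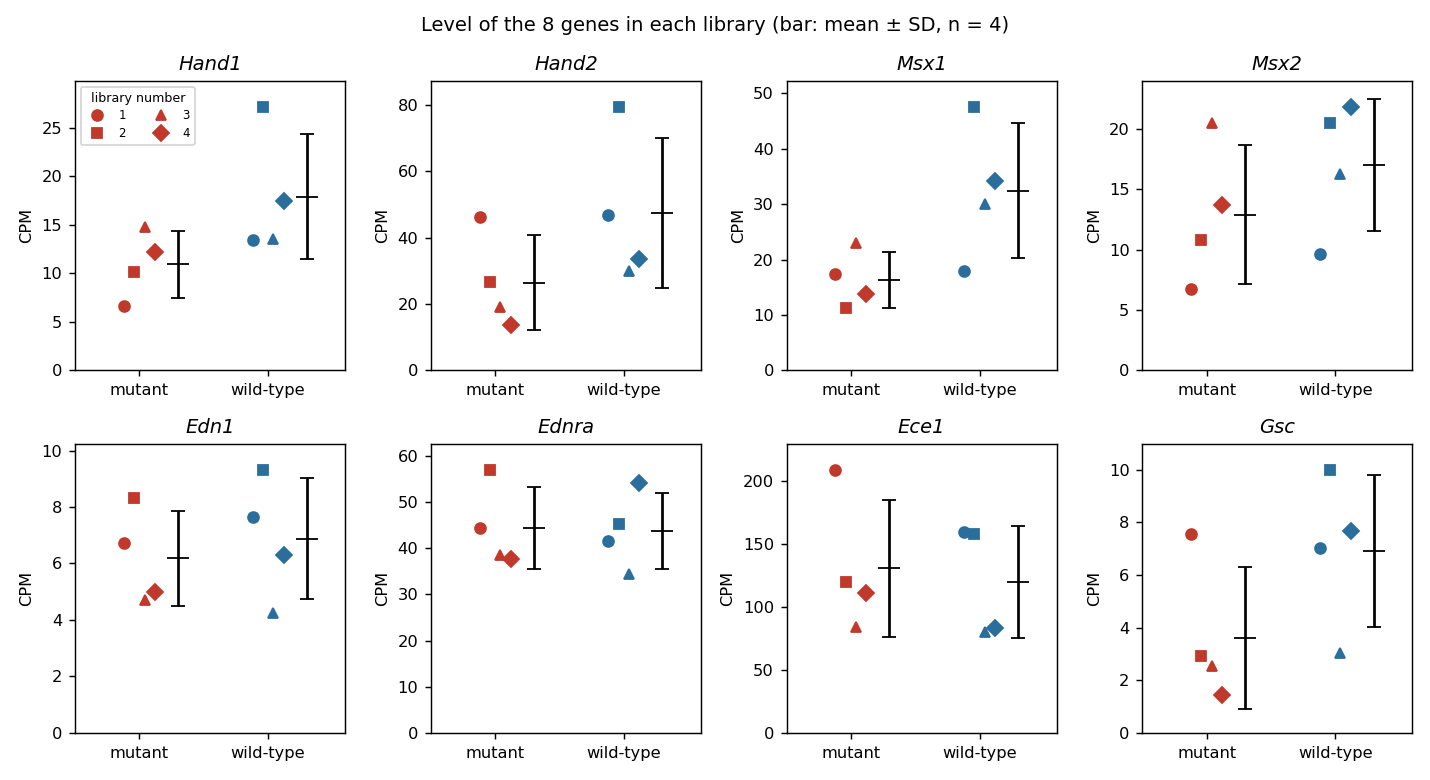
CPM (linear axis from 0) of each of the 8 genes in the 4 mutant libraries (red) and the 4 wild-type libraries (blue), with the mean and SD of each group in black; symbols mark the library number. The groups overlap for all 8 genes, and wild-type library 2 is the highest point for Hand1, Hand2, Msx1, Edn1 and Gsc.

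Msx1 had the smallest unadjusted p of the 8 in the edgeR fit of all libraries without pairs. Its fitted difference was close to that of Gsc, which was the larger, among other settings, with limma-voom (-1.13 for Gsc, -0.97 for Msx1), with pairs in the fit (-1.06, -0.96) and without mutant 1 (-1.58, -1.01). It lies on the minus strand of chromosome 5, from 37820485 to 37824583 in mm10 (ENSMUSG00000048450.10), and codes for a homeobox repressor of the arch mesenchyme and tooth-forming region. Its level was 17.3, 11.2, 22.9 and 13.8 CPM in mutant embryos 1 to 4, against 17.9, 47.5, 30.0 and 34.1 CPM in wild-type embryos 1 to 4. Mutant 3 was above wild-type 1, and the other 3 mutants were below all wild-type embryos. The means were 16.3 ± 5.09 CPM in mutants and 32.4 ± 12.2 CPM in wild-type embryos (SD, n = 4 each). The log2 fold change was -0.99 (SE 0.31, 95% interval -1.68 to -0.30), with an unadjusted p of 0.00972 that ranked 21 among all genes and an adjusted p of 0.99997 from edgeR's quasi-likelihood test. Msx1 was lower in 4 of 4 same-numbered pairs, with mutant minus wild-type differences of -0.05, -2.08, -0.39 and -1.30 log2 CPM in pairs 1 to 4, so pair 1 barely differed. Here and below, the share of all genes that differ in 1 direction in 4 of 4 pairs was not counted. Over the 8 fits that left out 1 library, the log2 fold change of Msx1 stayed between -1.20 and -0.75 and the unadjusted p between 0.00152 and 0.0325. It was -0.60 (unadjusted p = 0.0752, edgeR) without both libraries of number 2 and -0.88 (0.0559) without both of number 4. An antisense gene, Msx1as, is listed in the same table with counts in wild-type 2 alone (0.0847 CPM). Whether antisense reads entered the Msx1 counts is not known, since the strand setting of the counting is not given.

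Msx2, the paralog of Msx1, was nearer to its wild-type level. The gene is on chromosome 13 (53466884 to 53473074, minus strand). Msx2 stood at 6.77, 10.8, 20.5 and 13.7 CPM in mutant embryos 1 to 4 and at 9.61, 20.5, 16.3 and 21.8 CPM in wild-type embryos 1 to 4. The ranges of the groups overlapped almost completely, with embryo 1 the lowest of each. Its log2 fold change was -0.40 (SE 0.35, interval -1.18 to 0.39, unadjusted p = 0.281 by the edgeR test). It was -0.18 without mutant 1 and -0.71 without mutant 3. The ratio of Msx1 counts to Msx2 counts within a library, which does not depend on scaling, was 2.56, 1.04, 1.12 and 1.01 in mutants 1 to 4 and 1.86, 2.32, 1.84 and 1.56 in wild-type embryos 1 to 4. Mutants 2, 3 and 4 lay below every wild-type ratio and mutant 1 above them all; this ratio was chosen after the values were seen and was not tested.

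Hand2, which acts downstream of endothelin in the arches and is also needed in the right ventricle, lies on chromosome 8 (57320983 to 57324633, plus strand; ENSMUSG00000038193.4). Its level was 46.2, 26.7, 19.0 and 13.6 CPM in mutants 1 to 4, against 46.9, 79.3, 29.8 and 33.6 CPM in wild-type embryos 1 to 4. Mutant 1 was level with wild-type 1, while mutants 2, 3 and 4 were below all wild-type embryos. The log2 fold change was -0.85 (SE 0.41, interval -1.77 to 0.08, edgeR unadjusted p = 0.0682, adjusted p = 0.99997). Hand2 was lower in 4 of 4 pairs, with differences of -0.02, -1.57, -0.65 and -1.30 log2 CPM in pairs 1 to 4, and had an unadjusted p of 0.00618 with pairs in the fit (adjusted p = 0.961). The difference was -0.48 without wild-type 2 (unadjusted p = 0.244), -1.26 without mutant 1 (0.00779), and stood between these without any other single library. The annotation places Hand2os1 on the opposite strand across Hand2; it has no row in the count table, and whether the counting used strand is not known from the labels or the file headers.

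Hand1, a paralog of Hand2 expressed in the distal arch midline and the left ventricle, is on the minus strand of chromosome 11 (57828705 to 57832818). Its level was 6.60, 10.1, 14.8 and 12.2 CPM in mutants 1 to 4, against 13.4, 27.1, 13.5 and 17.4 CPM in wild-type embryos 1 to 4. Mutant 3 alone lay above the lowest wild-type embryos. For Hand1 the log2 fold change was -0.71 (SE 0.30, interval -1.37 to -0.04, edgeR unadjusted p = 0.0392, adjusted p = 0.99997), with a lower mutant in 3 of 4 pairs. Without wild-type 2 the value was -0.44 and the unadjusted p 0.138. The ratio of Hand2 to Hand1 counts, also set up after seeing the values, was 7.01, 2.65, 1.28 and 1.11 in mutants 1 to 4 and 3.49, 2.93, 2.21 and 1.94 in wild-type embryos 1 to 4. It spread more widely among mutants than among wild-type embryos, at both ends.

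Gsc, the homeobox gene goosecoid of the lower jaw and middle ear region, had the widest spread. The gene is on the minus strand of chromosome 12 (104471209 to 104473330). It was found at 7.56, 2.92, 2.56 and 1.44 CPM in mutants 1 to 4 and at 7.01, 9.99, 3.03 and 7.66 CPM in wild-type embryos 1 to 4, from 181, 83, 68 and 40 counts in mutants and 159, 236, 62 and 204 in wild-type embryos. Mutant 1 was in the range of the wild-type embryos, and the other 3 mutants were below them all. Gsc had a log2 fold change of -0.94 (SE 0.51, interval -2.10 to 0.22, edgeR unadjusted p = 0.0996). It was -1.58 without mutant 1 (unadjusted p = 0.00465) and -0.68 without mutant 4 (0.204).

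**Figure D2:**
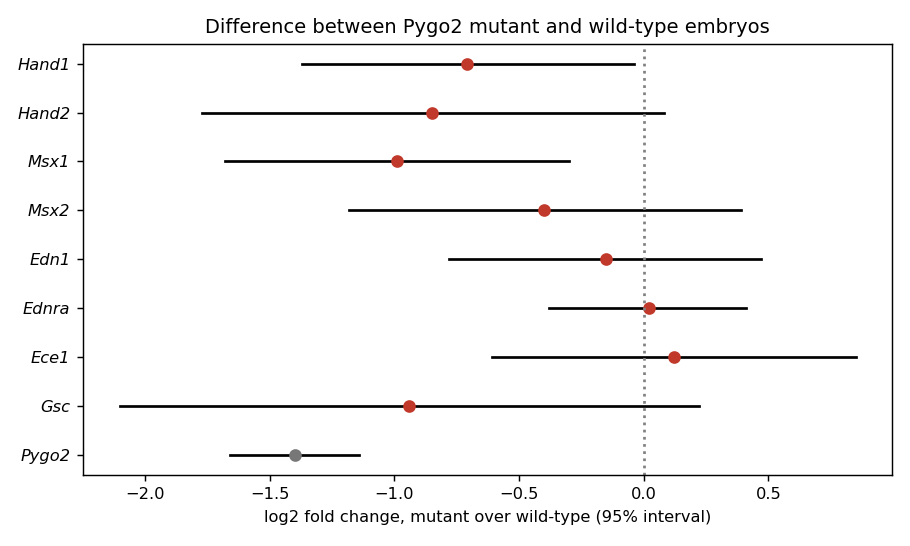
Log2 fold change of each of the 8 genes and of Pygo2 (grey), mutant over wild-type, with 95% intervals from the fit across all genes. The intervals of Hand1 and Msx1 lie below 0, those of Hand2, Msx2, Gsc, Edn1, Ednra and Ece1 span it, and Pygo2 is at -1.40.

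For the ligand, receptor and protease genes of the endothelin signal the fitted differences were small, with intervals that span 0. Edn1 (chromosome 13, 42301476 to 42307990, plus strand) stood at 6.73, 8.31, 4.71 and 4.98 CPM in mutants 1 to 4 and at 7.63, 9.31, 4.26 and 6.31 CPM in wild-type embryos 1 to 4. In both groups embryo 2 was the highest and embryo 3 the lowest. Its log2 fold change was -0.15 (SE 0.28, interval -0.78 to 0.47, edgeR unadjusted p = 0.592), and it was 0.03 without wild-type 2.

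The receptor gene Ednra was the steadiest of the 8. It lies on chromosome 8 (77663031 to 77724464, minus strand). Ednra had 44.4, 56.9, 38.4 and 37.7 CPM in mutants 1 to 4, against 41.6, 45.3, 34.3 and 54.1 CPM in wild-type embryos 1 to 4. Its means were 44.3 ± 8.88 CPM in mutants and 43.8 ± 8.22 CPM in wild-type embryos (SD, n = 4 each). The log2 fold change of 0.02 (SE 0.17) had an interval from -0.38 to 0.41, that is, from 0.771 to 1.33 of the wild-type level, and so excludes a change of the size fitted for Hand1, Hand2, Msx1 or Gsc.

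Ece1, on chromosome 4 (137862237 to 137965229, plus strand), was the most abundant of the 8. Its level was 209, 120, 84.2 and 111 CPM in mutants 1 to 4 and 160, 158, 80.5 and 83.8 CPM in wild-type embryos 1 to 4. Mutant 1 was the highest and wild-type 3 the lowest, and the groups overlapped. The log2 fold change was 0.12 (SE 0.32, interval -0.61 to 0.85, edgeR unadjusted p = 0.716) and -0.19 without mutant 1. Levels of Ece1 followed heart and vessel markers across libraries: Pearson r of log2 CPM over the 8 libraries was 0.89 with the mean of the heart muscle genes (Spearman 0.88; 0.76 without the 2 libraries farthest from the median of those genes) and 0.86 with the mean of 10 endothelial genes (Spearman 0.88; 0.81 without 2 libraries). For Edn1 these were 0.73 (Spearman 0.74; 0.81 without 2 libraries) and 0.86 (0.79; 0.82). The part of heart and vessel content in the levels of either gene was not tested.

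Per kilobase of annotated exon, the order of the genes was not the same in the 2 groups. In mutants the mean level in CPM per kilobase was 24.7 for Ece1, 11.2 for Hand2, 8.10 for Ednra, 5.47 for Hand1, 5.27 for Msx1, 3.94 for Msx2, 2.89 for Edn1 and 2.86 for Gsc. In wild-type embryos it was 22.7 for Ece1, 20.2 for Hand2, 10.5 for Msx1, 8.94 for Hand1, 8.0 for Ednra, 5.46 for Gsc, 5.20 for Msx2 and 3.21 for Edn1. In wild-type embryos the ranges of neighbours in this order overlapped throughout, Ece1 (15.2 to 30.1) and Hand2 (12.7 to 33.7) included. The same held in mutants, where Ece1 ran from 15.9 to 39.5 and Hand2 from 5.78 to 19.7.

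Most of the 8 varied between embryos of a group more than a typical gene. The SD of log2 CPM within groups was 0.86 for Gsc, 0.69 for Hand2, 0.60 for Msx2, 0.55 for Ece1, 0.52 for Msx1, 0.48 for Hand1, 0.43 for Edn1 and 0.27 for Ednra, against a median of 0.24 over the 13663 genes of at least 1 CPM. The value for Gsc was above that of 95.8% of these genes and that of Hand2 above 93.0%, while Pygo2, at 0.15, was above 20.8%. Single embryos stood out across genes. Wild-type 2 held the highest value of 5 of the 8 genes (Hand1, Hand2, Msx1, Edn1 and Gsc), and mutant 4 the lowest of Hand2 and Gsc. Mutant 1 had the lowest Hand1 and Msx2 with near wild-type Hand2 and Gsc.

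**Figure D3:**
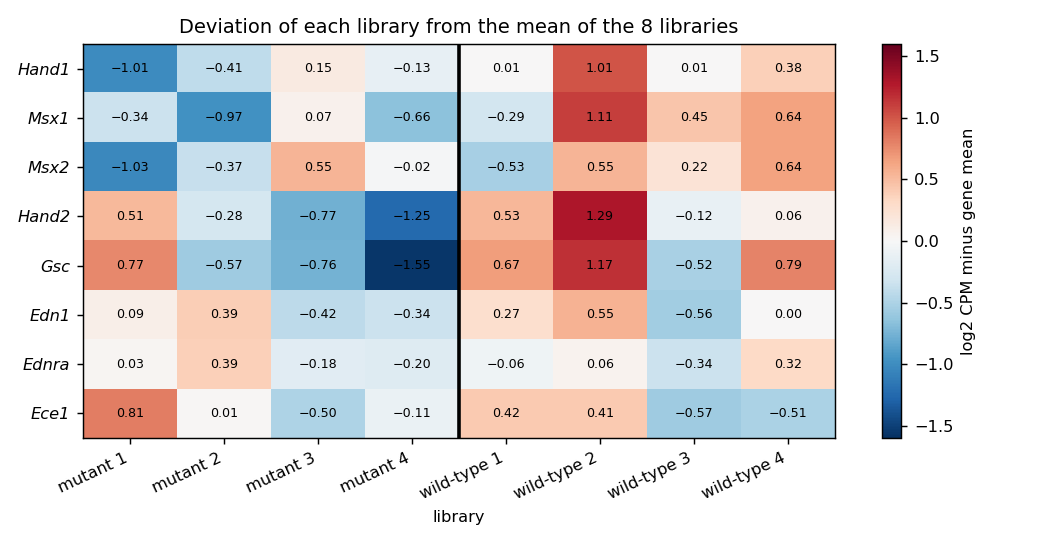
Log2 CPM of each gene in each library minus that gene's mean over the 8 libraries, with mutants left of the black line and wild-type embryos right of it; red is above the mean and blue below. Wild-type 2 is above the mean for all 8 genes, and mutant 1 is low for Hand1, Msx1 and Msx2 but high for Hand2 and Gsc.

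Across the 8 libraries the genes that were lower in mutants did not move as a single block. Hand2 and Gsc varied together, with a Pearson r of log2 CPM of 0.93 (Spearman 0.90) that was 0.89 on deviations from the group means and 0.86 without the 2 libraries farthest from the median of Hand2. On deviations from the group means Hand2 also had r = 0.84 with Ece1 and 0.76 with Edn1, and Gsc 0.73 and 0.69. On the levels themselves these were 0.60, 0.71, 0.52 and 0.66. Hand1 went with Msx2 (r = 0.84, Spearman 0.90, 0.84 within groups, 0.75 without 2 libraries) and with Msx1 (r = 0.77, Spearman 0.90, 0.57 within groups, 0.89 without 2 libraries). The paralogs Hand1 and Hand2 were only weakly alike (r = 0.30, Spearman 0.29, -0.13 within groups, 0.23 without 2 libraries), whereas Msx1 and Msx2 had r = 0.69 (Spearman 0.76, 0.64 within groups, 0.66 without 2 libraries). Edn1 was nearest to Hand2 (r = 0.71, Spearman 0.62, 0.49 without 2 libraries) and Ednra (r = 0.70, Spearman 0.76, 0.69 without 2 libraries), and Msx2 ran opposite to Ece1 (r = -0.72, Spearman -0.67), though r was -0.22 without mutant 1 and wild-type 1. These are descriptions of 28 pairs in 8 libraries that share their dissection, and they carry no p-value.

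**Figure D4:**
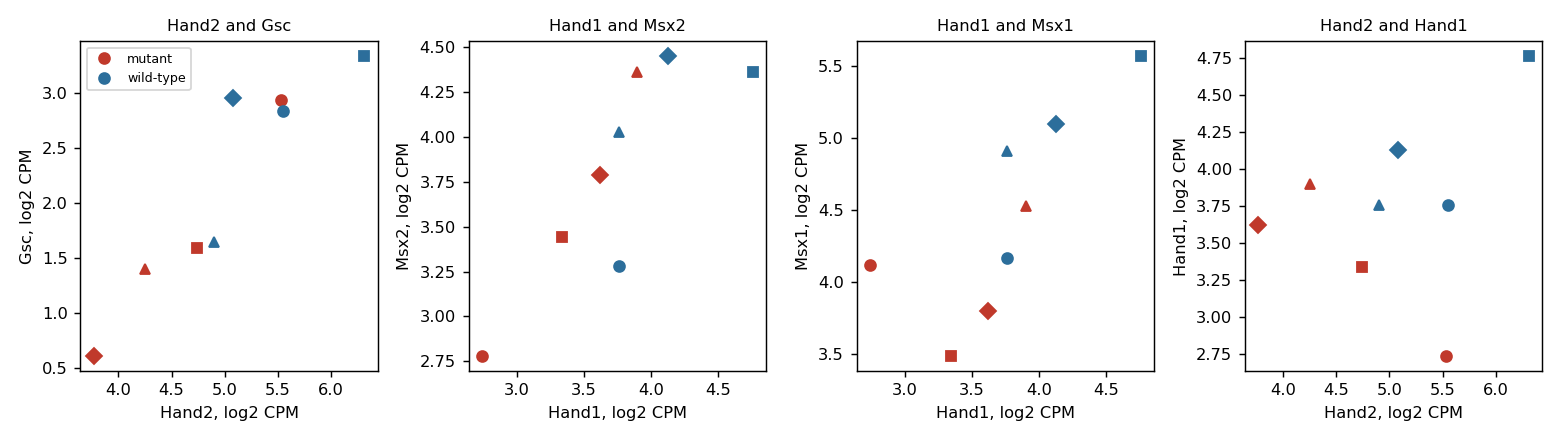
Log2 CPM of 4 pairs of genes, 1 point per library (red mutant, blue wild-type; symbols mark the library number as in the plot of CPM by gene). Hand2 and Gsc (r = 0.93) lie along a line, as Hand1 and Msx2 (r = 0.84) do more loosely, while Hand1 and Hand2 (r = 0.30) do not.

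Tissue markers moved with some of these genes. Msx1 had r = 0.85 with the mean of the arch mesenchyme genes (Spearman 0.71, 0.62 without the 2 libraries farthest from the median of those genes). For Hand1, Gsc, Hand2 and Msx2 it was 0.63, 0.62, 0.59 and 0.53 (Spearman 0.52, 0.86, 0.71 and 0.43). Without those 2 libraries r was 0.06, 0.23, 0.42 and 0.01. The r of Hand1 and Msx2 thus rests on them, and so does most of that of Gsc, while Hand2 kept a weaker r. Gsc and Hand2 have high rank correlations over all libraries. With the mean of the macrophage genes Msx1 had r = -0.73 (Spearman -0.88, -0.84 without 2 libraries). Hand2 and Gsc had r = -0.74 and -0.80 with the mean of 10 neural tube and neuron genes (-0.72 and -0.79 without 2 libraries). The endothelin genes shared this, with -0.84 for Ece1, -0.75 for Edn1 and -0.52 for Ednra (-0.67, -0.86 and -0.57 without 2 libraries). For Msx2, Hand1 and Msx1 it was 0.62, 0.28 and 0.04 (0.19, -0.32 and -0.12 without 2 libraries). With the mean of the heart muscle genes Hand2 had r = 0.57 (Spearman 0.36, 0.60 without 2 libraries) and Gsc 0.48 (0.21, 0.33). Hand1, Msx1 and Msx2 had -0.38, -0.26 and -0.68 with it (0.05, -0.09 and -0.47 without 2 libraries). With the mean of the endothelial genes r was 0.59 for Hand2 (Spearman 0.60, 0.63 without 2 libraries) and 0.55 for Gsc (0.40, 0.47). The neural genes summed to 35.1 CPM in mutant 1 and 674 CPM in mutant 3, and to 64.8 CPM in wild-type 1 and 588 CPM in wild-type 3. Beside the list counts that follow, 50.0% of all genes tested were lower in mutants. At an unadjusted p under 0.05 by edgeR, 0.814% of all genes were lower and 0.484% higher. Of the arch mesenchyme genes 11 of 12 were lower in mutants with 0 called, 2 at an unadjusted p under 0.05, and a median log2 fold change of -0.27, among them Prrx1, a homeobox gene of limb and arch mesenchyme, at -0.45 (SE 0.17) and Pdgfc, a growth factor gene, at -0.44 (SE 0.18). Of the heart muscle genes 12 of 12 were higher with 0 called and 0 at an unadjusted p under 0.05 (median 0.33), led by Ttn at 0.65 (SE 0.33) and Myh7 at 0.70 (SE 0.40). With pairs in the fit the edgeR unadjusted p was 0.000195 for Ttn and 0.00578 for Myh7 (adjusted p = 0.749 and 0.961). For Prrx1 and Pdgfc of the mesenchyme genes it was 0.0352 and 0.00992 (adjusted p = 0.968 for each). In both lists no gene was at 0 in all libraries. For the other tissues, 4 of 10 epithelial genes were higher and 6 lower (median log2 fold change -0.08, 0 called, 1 lower at an unadjusted p under 0.05, Cldn7 at -0.54, SE 0.20), and 5 of 10 endothelial genes higher and 5 lower (median -0.01, 0 called, 0 at an unadjusted p under 0.05). All 8 tested erythroid genes were lower (median -0.76, 0 called, 0 at an unadjusted p under 0.05; Hba-a1 was at 0 in all libraries), with sums of 2880 to 9480 CPM in mutants and 4850 to 23900 CPM in wild-type embryos. Of the macrophage genes 10 of 10 were higher (median 0.51, 0 called, 2 at an unadjusted p under 0.05, Mrc1 at 0.75, SE 0.28, and Aif1 at 1.05, SE 0.41), with sums of 31.6 to 59.6 CPM in mutants and 24.9 to 32.3 CPM in wild-type embryos. Neural genes were higher in 9 of 10 cases (median 0.71, 0 called, 0 at an unadjusted p under 0.05). Of 6 autonomic neuroblast genes, a cell type in which Hand2 is known to be expressed, 3 were higher and 3 lower (median 0.09, 0 called, 0 at an unadjusted p under 0.05), and their sum was 3.34 to 45.6 CPM in mutants and 20.3 to 42.2 CPM in wild-type embryos. Hand2 ran against their mean, with r = -0.58 (Spearman -0.81, -0.91 without 2 libraries). The part that the mix of tissues has in the Msx1, Hand and Gsc values was not tested.

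Genes with the most similar profile were sought among 13662 candidates of at least 1 CPM, by Pearson r of log2 CPM over the 8 libraries. With 8 points and so many candidates, a high r describes these libraries and no more. Msx1 was nearest to Col9a1, a collagen gene (r = 0.98), which was at 158 CPM in mutants and 199 CPM in wild-type embryos (log2 fold change -0.33, SE 0.11, edgeR unadjusted p = 0.0136), and to Phf3 (0.96). Msx2 was nearest to Ssu72 (0.97) and to Gja1, the connexin 43 gene (0.96), Hand1 to Rbpj, which encodes the DNA-binding factor of Notch signalling (0.95), and to Cldn4 (0.93), and Hand2 to Gid8 (0.98) and Gm10664 (0.95). Gsc was nearest to Dnajc15 (0.97) and Kcnmb4 (0.96), Edn1 to Adamts9, a secreted protease gene (0.99), and Timp2, a metalloprotease inhibitor gene (0.98), Ednra to Tmem26 (0.97) and Fuom (0.97), and Ece1 to Slc38a10 (0.99) and Vps37b (0.99). For Hand1 and Rbpj the value was 0.64 without mutant 1 and wild-type 2, and for Hand1 and Cldn4 0.76.

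Other transcription factors of the distal and intermediate arch also lay mostly below their wild-type level. Of 12 such factors 10 were lower in mutants and 2 higher, with 0 called, 4 at an unadjusted p under 0.05 and a median log2 fold change of -0.33. Those 4 were lower, as 0.814% of all genes were at that threshold, and 50.0% of all genes were lower at any p. The list was chosen with earlier results of these data known, so its counts are descriptions. Prrx1, which is among those 4, and Prrx2 are also counted among the arch mesenchyme genes above. Twist1 and Twist2 are both mesenchyme and partner genes, and Dlx2 is both a mesenchyme and a proximal gene. The counts of these lists are therefore not independent of each other. Nkx3-2, needed for the jaw joint, averaged 1.17 ± 0.395 CPM in mutants and 2.22 ± 0.525 CPM in wild-type embryos (SD, n = 4 each), with overlapping groups and a log2 fold change of -0.92 (SE 0.30). Dlx5 and Dlx6, endothelin-dependent homeobox genes, were at -0.28 (SE 0.51) and -0.37 (SE 0.56), and Dlx3 at 0.58 (SE 0.59). For each of them mutant 1 was the highest library, at 14.0, 12.7 and 43.8 CPM. Dlx6 had 1.58, 2.9 and 3.86 CPM in mutants 2 to 4, below all wild-type embryos (4.32 to 8.52 CPM). Dlx5 had 2.36, 4.48 and 4.44 CPM there (wild-type 4.14 to 10.2 CPM) and Dlx3 6.48, 7.95 and 9.03 CPM (wild-type 8.07 to 14.7 CPM). The antisense RNA listed as Dlx6as1 was at -0.42 (SE 0.52). It had 69.0 CPM in mutant 1 and 16.0, 18.1 and 11.5 CPM in mutants 2 to 4, against 24.7 to 45.3 CPM in wild-type embryos. Of 9 genes of the proximal arch 5 were higher and 4 lower, with 0 called, 0 at an unadjusted p under 0.05 and a median of 0.02; the nuclear receptor gene Nr2f1 was at 0.33 (SE 0.20). The difference between the distal and the proximal list was not tested.

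Of the other endothelin system genes 8 were tested, 2 higher and 6 lower, with 0 called, 0 at an unadjusted p under 0.05 and a median of -0.05; Edn2 was too low to test. Ednrb, the receptor gene of melanocyte and enteric precursors, was at 97.2 ± 25.3 CPM in mutants and 66.5 ± 22.5 CPM in wild-type embryos (SD, n = 4 each), higher in 4 of 4 pairs but with overlapping groups (log2 fold change 0.55, SE 0.26, edgeR unadjusted p = 0.0613). Its usual ligand gene Edn3 was at -0.20 (SE 0.20). The G protein and phospholipase genes that carry the signal inside the cell, Gnaq, Gna11 and Plcb3, were at -0.06, -0.06 and -0.05, and Mef2c, a transcription factor gene on which the signal acts, at 0.07 (SE 0.17). BMP genes upstream of Msx and Hand had 2 higher and 12 lower of 14, with 0 called, 0 at an unadjusted p under 0.05 and a median of -0.08. Bmp4, the BMP ligand of the distal arch epithelium, was at 20.4 ± 7.76 CPM in mutants and 26.9 ± 10.0 CPM in wild-type embryos (SD, n = 4 each; log2 fold change -0.40, SE 0.33), lower in 4 of 4 pairs. The BMP-induced gene Id2 had a log2 fold change of -0.31 (SE 0.17). Partners of the Hand and Msx proteins, such as the E-protein and Gata genes, had 3 higher and 10 lower of 13, with 0 called, 0 at an unadjusted p under 0.05 and a median of -0.09; Twist1, a bHLH gene of the same mesenchyme, was at -0.45 (SE 0.25) and Twist2 at -0.20 (SE 0.19).

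**Figure D5:**
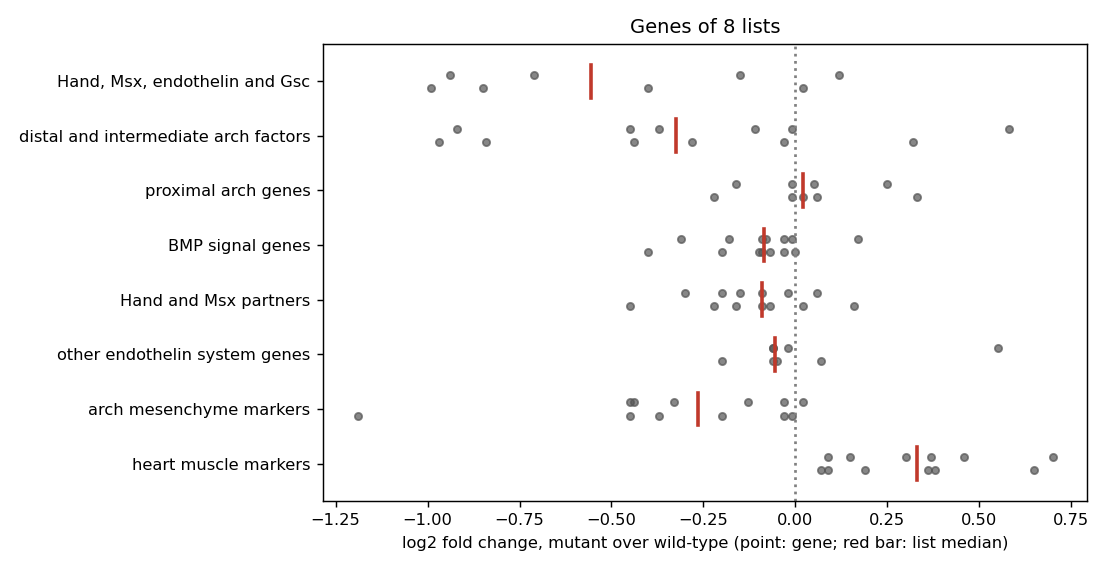
Log2 fold change, mutant over wild-type, of the tested genes of 8 lists; each point is a gene, each red bar the median of its list. The medians are -0.55 for the 8 genes described here, -0.33 for the other distal and intermediate arch factors, 0.02 for proximal arch genes and 0.33 for heart muscle.

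The tested genes that flank the 8 on the chromosome were near their wild-type level. Of the 16 flanking genes 15 had a log2 fold change between -0.23 (Sap30l, beside Hand1) and 0.22 (Alpl, beside Ece1). The exception was Cytl1, 80665 bases from Msx1, at 1.58 CPM in mutants and 0.525 CPM in wild-type embryos (log2 fold change 1.59, SE 0.53, edgeR unadjusted p = 0.0137, adjusted p = 0.99997). Stx18, on the other side of Msx1, was at -0.10 (SE 0.14).

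The sequence just upstream of the RefSeq start was looked at for the 7 genes with an entry in the RefSeq promoter table (GRCm38.p6), since β-catenin and its cofactors act through TCF/LEF factors. The 250 bases before the start are shown for Msx1 and Hand2, the members that were lower in 4 of 4 same-numbered pairs. In pair 1 the differences were only -0.05 and -0.02 log2 CPM. The Msx1 window is at chr5:37824586-37824835 (minus strand) and the Hand2 window at chr8:57320733-57320982 (plus strand). Capitals mark CCAAT boxes (letters CCAAT) and a homeodomain core (letters TAATTA), found on either strand.
Msx1: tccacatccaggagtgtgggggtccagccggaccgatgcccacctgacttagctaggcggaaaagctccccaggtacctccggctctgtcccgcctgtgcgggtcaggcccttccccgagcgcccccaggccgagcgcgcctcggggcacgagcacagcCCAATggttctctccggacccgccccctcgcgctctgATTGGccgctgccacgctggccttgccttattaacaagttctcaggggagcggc
Hand2: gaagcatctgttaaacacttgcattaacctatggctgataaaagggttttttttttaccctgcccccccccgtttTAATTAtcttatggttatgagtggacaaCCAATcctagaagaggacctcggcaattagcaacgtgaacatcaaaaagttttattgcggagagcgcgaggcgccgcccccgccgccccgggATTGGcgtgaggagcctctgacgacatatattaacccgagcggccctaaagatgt
The TCF/LEF core, searched as CTTTGA on both strands, was in neither window and in 1 of the 4 Ece1 windows, 121 bases before that start; the windows of Msx2, Edn1, Ednra and Gsc did not hold it either, and 13.8% of all 32851 promoter windows of this length do. The CCAAT box was found in the windows of Msx1 (91 and 54 bases before the start), Hand2 (147 and 55), Msx2 (124) and Edn1 (203) and in 2 of the 4 overlapping or alternative Ece1 windows, as in 33.8% of all windows. The homeodomain core was found in Hand2 (175 bases before the start) and Msx2 (187), as in 4.84% of all windows. The RefSeq starts differ from the gene spans given above. The Msx2 window (53472781 to 53473030) lies inside the span of Msx2, and those of Gsc and Ednra reach partly into theirs. An E-box (CANNTG, not in capitals), the motif class of Hand proteins, was in the windows of Msx1, Hand2, Msx2, Ednra and Gsc and in 2 of those of Ece1, as in 66.2% of all. A TATA box (TATAAA) was in the Gsc window alone, 164 bases before the start, as in 12.4% of all. These are matches of letters in a short window and not sites of binding, and enhancers lie outside it.

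The authors' deposited table puts these genes in the same order of p-values. In it Msx1 has a log2 fold change of -0.99 and a p of 0.00218, rank 7 of its genes, followed by Hand1 (-0.70, p of 0.0274), Hand2 (-0.84, p of 0.045) and Gsc (-0.93, p of 0.0854). The false discovery rate in the authors' deposited table is 1 for each of the 8.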

How the data were processed

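RNA from 4 Pygo2 mutant and 4 wild-type embryos was prepared as ribosome-depleted stranded total RNA, per the labels' protocols. The tools listed, per the submitters' processing notes, are TopHat2 (2.0.11), HTSeq (0.6.1) and edgeR (3.14), and the build is mm10; for the annotation and strand setting the sources used here give nothing. The authors deposited raw counts per gene, and a comparison table that holds, for each gene, a log2 fold change, its linear fold ratio, a p-value and its false discovery rate.

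From the counts, genes were filtered with filterByExpr and libraries scaled by TMM. Genotype was tested in edgeR 4.0.16 (R 4.3.3) by quasi-likelihood, two-sided, with Benjamini-Hochberg adjustment over 14861 genes. The step was tested on simulated data in which each library varied independently. Those data lack the deviations that embryos share (given below), so they do not show how often a real difference would be called here. Log2 CPM uses a prior count of 2, and 95% intervals the t distribution with 9.31 degrees of freedom. Positions and exon lengths come from GENCODE M21 (GRCm38, the mm10 build), in which 21777 symbols matched directly and 1253 through an older symbol.

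Same-numbered embryos deviated together from their group means (r of deviations 0.556, 0.185, 0.676 and 0.186 for numbers 1 to 4), so a fit with number as a block was run beside the main one. Libraries of different number were as alike in places (mutant 4 with wild-type 3, r = 0.628; mutant 2 with wild-type 1, 0.482; mutant 1 with wild-type 2, 0.427; mutant 3 with wild-type 4, 0.253), so numbers 1 and 2 resembled each other, as did 3 and 4. The labels do not say what a number stands for. Other settings were DESeq2 1.42.0, the edgeR exact test, limma-voom (limma 3.58.1), other scalings and filters, and libraries left out. Members and lists were chosen with earlier results of these data known, which makes their counts descriptions. Named by rule are the 8, Pygo2, the 2 of a list with the smallest p, the 2 most similar to each member and the flanking genes; some genes that the rule names are not reported here. Dlx3, Dlx5, Dlx6, Gnaq, Gna11, Plcb3 and Mef2c were added after their values were seen.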

Additional observations from a re-analysis of the deposited data

How the results depend on the processing

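In all 20 other settings tried, 0 of the 8 genes, 0 of the other listed genes and 0 genes with higher levels in mutants were called. The direction of Hand1, Hand2, Msx1, Msx2 and Gsc was lower in mutants in every one of these settings. Signs turned only for genes near 0 and only when libraries were left out. Edn1 ran from -0.32 to 0.03 over the fits without 1 library (log2 fold change; 0.03 without wild-type 2). Ednra ran from -0.12 to 0.13 over the same fits, with -0.12 when mutant 2 was left out, -0.01 when wild-type 1 and -0.08 when wild-type 3 was; without both libraries of a number it ran from -0.10 (number 2) to 0.21 (number 4), with -0.02 for number 3. Ece1 ran from -0.19 to 0.29, with -0.19 when mutant 1 was left out, -0.03 when wild-type 3 and -0.02 when wild-type 4 was; without both libraries of a number it ran from -0.02 (number 1) to 0.33 (number 2). The number of the 8 that were lower ran from 5 to 8 and their median from -0.71 to -0.36 over the fits without 1 library, and from -0.81 to -0.30 without both of a number.

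With the replicate block the log2 fold changes were -0.96 for Msx1, -0.89 for Hand2, -0.71 for Hand1, -0.44 for Msx2, -1.06 for Gsc, -0.14 for Edn1, 0.02 for Ednra and 0.12 for Ece1, and the block changed no call. The edgeR unadjusted p with it was 0.0155, 0.00618, 0.0192, 0.0598, 0.0378, 0.396, 0.912 and 0.413 in the same order. Of the 14861 genes, 745 had an unadjusted p under 0.05 with the block and 193 without. The count with it is near a 0.05 share of all genes and the count without it well below. Unadjusted p-values of the main fit therefore run high across all genes. Which fit suits these embryos was not tested. The count of called lower genes was 0 or 1 over the fits without 1 library and 0 without both libraries of any number. Pygo2, the gene in question, ran from -1.46 to -1.35 over the fits without 1 library, losing its call without mutant 2 (adjusted p = 0.0973), mutant 3 (0.0694), mutant 4 (0.0636), wild-type 1 (0.0549) or wild-type 2 (0.0739) by edgeR's quasi-likelihood test. Without both libraries of number 1, 2, 3 or 4 it was at -1.41, -1.37, -1.40 and -1.40, and the call was lost each time (adjusted p = 0.0587, 0.658, 0.275 and 0.14 by the same test), with fewer embryos in each fit. With 4 embryos a group and the spread seen for Gsc and Hand2, their intervals reach from a large decrease to a small increase.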
